A study of Columba livia with 16 samples.

Results

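Forelimb-only regions of H3K27ac enrichment are stretches of the pigeon genome that carried a peak in forelimb buds, but not in hindlimb buds, of both the racing homer and the Indian fantail breed. They were found by pooling the deposited peak lists, 1 for each limb of each breed, and joining all peaks that overlapped by at least 1 bp into merged regions. Of 26456 merged regions, 469 (1.77%; 95% Wilson interval 1.62–1.94%) had a peak in both forelimb lists and in no hindlimb list. Members were chosen by the presence or absence of a peak in these lists and by nothing else, so the lack of a hindlimb peak at these regions is their definition and not a finding. The number depended on the lists. Cut to the same length, 15357 peaks each, they gave 851 such regions, which overlapped 413 of the 469. Limited to scores of at least 100 they gave 293, which overlapped only 90 of the 469. The embryos were collected at Hamburger-Hamilton stage 25, when the wing and leg are still buds. The racing homer has scaled feet. The Indian fantail has small muffs of foot feathers and, by the study's account, a deletion on scaffold 79 near *Pitx1*. No embryo was treated. Each limb of each breed was represented by 2 ChIP and 2 input libraries (16 libraries), and the sources used here give neither the number of embryos in a library nor their sex.

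H3K27ac is an acetylated form of histone H3 that accumulates at active enhancers and promoters. In whole limb buds it is read over all cell types together, so acetylation of fewer cells and weaker acetylation of more cells cannot be told apart. The forelimb and hindlimb buds of a vertebrate share most of their patterning genes, and the few transcription factors that separate them include *Tbx5*, which is expressed in the forelimb and is needed for the wing bud to grow out, and *Pitx1* and *Tbx4*, which mark the hindlimb. *Tbx3*, a paralog and neighbour of *Tbx5*, is expressed in both limbs. In the RefSeq annotation of another pigeon assembly (bColLiv1.pat.W.v2), *Tbx5* lies between *RBM19* and *TBX3*. No annotation on the scaffolds of the peak lists was used, so members are named by position, and *Tbx5*, *Tbx3* and *Pitx1* are placed only by windows read from the axes of the study's plots.

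The lists held 16474 forelimb and 18821 hindlimb peaks in the racing homer, and 15357 forelimb and 22407 hindlimb peaks in the Indian fantail. Each list combined its replicates, so values carry no error between samples, and no test between limbs or breeds was possible. Intervals cover counting error or the spread over regions only, and neighbouring regions are not independent. Read counts are not part of the lists, so the depth behind a peak is unknown. Each peak carried a score from the peak caller of at least 50. Ranks were compared through the percentile of a score (its rank among the list's peaks as a percent, with tied peaks given their mean rank). Scores are also printed as deposited, and cutoffs of 60, 100 and 200 were applied alike to the lists. Equal scores in different lists need not mean equal enrichment.

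The strongest forelimb-only region lay at the *Tbx5* locus. On scaffold 70, the region from 677169 to 686575 scored 3100 in the racing homer forelimb list and 3100 in the Indian fantail forelimb list, at the 99.7th and 99.8th percentiles. A score of exactly 3100 was shared by 90 peaks of the first list and 59 of the second, so equal scores here do not show equal enrichment. The peaks of the breeds differed by 6 bp in length, 9407 and 9401 bp, and ended on the same base. No other member reached the 95th percentile in either list. Neither hindlimb list had a peak here. The nearest racing homer hindlimb peak was 90131 bp away, whereas the nearest Indian fantail hindlimb peak was 7879 bp away. The region depended on how peaks were joined: when peaks within 500 bp were joined, it merged with its neighbour 376 bp away and was no longer forelimb-only, whereas it was kept under each of the 5 other rules tried.

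**Figure D1:**
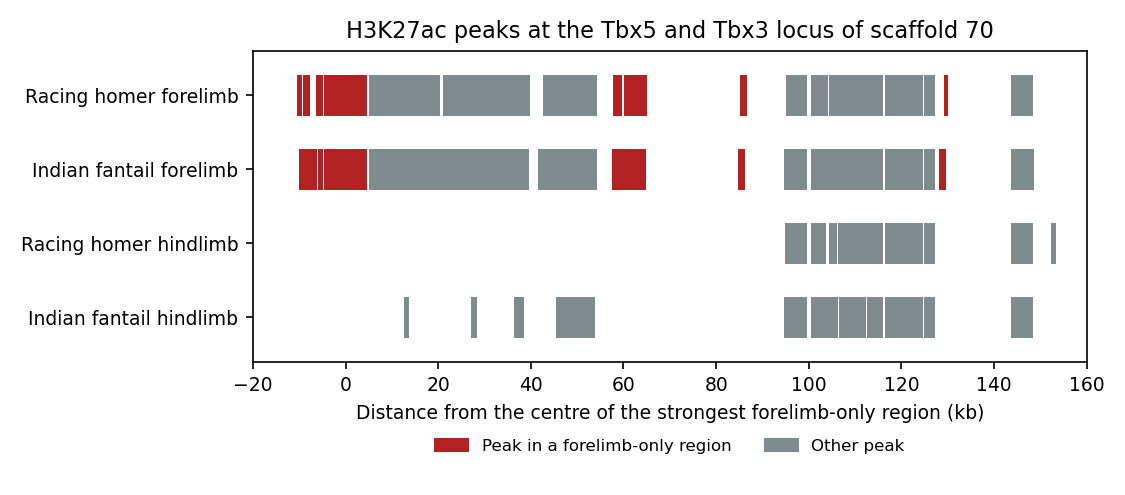
Peaks of the 4 lists at the *Tbx5* and *Tbx3* locus of scaffold 70, drawn to scale as distance in kb from the centre of the strongest forelimb-only region. Each bar is 1 peak. Bars in red belong to forelimb-only regions, which flank the long forelimb peaks with Indian fantail hindlimb peaks beneath them, and the block of peaks on the right is present in all 4 lists.

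The window of scaffold 70 from 0.640 to 0.760 Mb, read from the study's plot of the *Tbx5* locus, held 7 merged regions, and 5 of them were members. This count fell to 1 when peaks within 500 bp were joined, to 2 with peaks scoring at least 100 and to 1 with forelimb peaks at or above the median score of their list. The other 2 merged regions, from 686952 to 721600 and from 723453 to 736159, also had both forelimb peaks, but Indian fantail hindlimb peaks lay within them. By the study's account, *Tbx5* was ectopically expressed in Indian fantail hindlimb buds at this stage. The study also reported that H3K27ac differed between the hindlimbs of the breeds just upstream of *Tbx5*. A link between that expression and the peaks listed here was not tested. The racing homer hindlimb list had no peak in the window, so within this breed all 7 merged regions lacked a hindlimb peak. The 5 members covered 20.3 kb in the racing homer and 21.8 kb in the Indian fantail.

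The members around the strongest region were weaker, and their ranks differed between the breeds. Directly before it, 3 members followed each other with gaps of 16, 41 and 93 bp. The first, from 671298 to 674487, had a highest score of 105 in the racing homer and 55.8 for the Indian fantail. The second, from 674504 to 676498, scored 70.4 and 61.5, and its peaks in the breeds shared 33.8% of its length. The third, from 676540 to 677075, scored 50.3 and 71.5 and was the shortest member of the locus at 536 bp. Of these 3 members, the first and the second therefore ranked higher in the racing homer list and the third ranked higher in the Indian fantail list.

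On the far side of the locus, the member from 739304 to 746888 consisted of 2 peaks in each breed. Its scores in the racing homer were 51.2 and 111, and in the Indian fantail 241 and 299.9. The best peak was at the 46.3rd percentile in the racing homer and at the 80.8th in the Indian fantail, and the nearest Indian fantail hindlimb peak was 3480 bp away. In the neighbouring window from 0.760 to 0.800 Mb, read from the same plot for *Tbx3*, 7 of 8 merged regions were in all 4 lists and 1 was a member. That member, from 766620 to 768627, scored 106 and 58.6 and lay 7838 bp before the nearest hindlimb peak. A last member of scaffold 70, from 809983 to 811989, scored 67.5 and 91.3 and followed the shared block by 830 bp. Its peaks in the breeds shared 19.3% of its length. With 7 members among 41 merged regions (17.1%; 8.53–31.3%), scaffold 70 had the largest share of the 21 scaffolds with at least 5 members. This place depended on the cutoff, since shares were larger on scaffold 384 (4 among 16), scaffold 132 (3 among 9) and scaffold 691 (3 among 6). It also rested on close members, as gaps of only 16, 41 and 93 bp separated 4 of them. Joining peaks within 500 bp left 1 member in the *Tbx5* window, and the ranking was not repeated under that rule.

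For *Pitx1*, which marks the hindlimb, the window held no member. The window of scaffold 79 from 6.80 to 7.0 Mb held 10 merged regions, of which 0 were forelimb-only and 3 were hindlimb-only in both breeds. Over all merged regions the shares were 1.77% and 9.31%, so 0 members among 10 regions is near the background.

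Over all members, with those at the *Tbx5* locus included, most were weak peaks. The median score of the members was 83.8 in the racing homer (interval of the median 78.9–87.7) and 84.7 for the Indian fantail (80.6–89.4), at the 32.1st and 33.1st percentiles. For regions in all 4 lists, the median forelimb percentiles were 67.1 and 65.2. Low ranks were not particular to members. Regions with both forelimb peaks and only an Indian fantail hindlimb peak had median forelimb percentiles of 35.6 and 35.2. Those with only a racing homer hindlimb peak had 40.3 and 34.5. Hindlimb-only regions of both breeds had medians of 27.2 in the racing homer hindlimb list and 34.9 in the Indian fantail hindlimb list. Scores below 60, close to the minimum of 50, were found for 94 members in the racing homer (20.0%) and 82 for the Indian fantail (17.5%), and 24 members (5.12%) were below 60 in both. Scores of at least 200 in both breeds were found for 15 members (3.20%; 1.95–5.21%). Counts in both breeds at the cutoffs of 60 and 200 were not made over all regions with both forelimb peaks. Both scores were at or above the median of their list for 57 members (12.2%; 9.50–15.4%), against 53.2% of all 11123 regions with peaks in both forelimbs. These 57 members lay on 44 scaffolds.

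**Figure D2:**
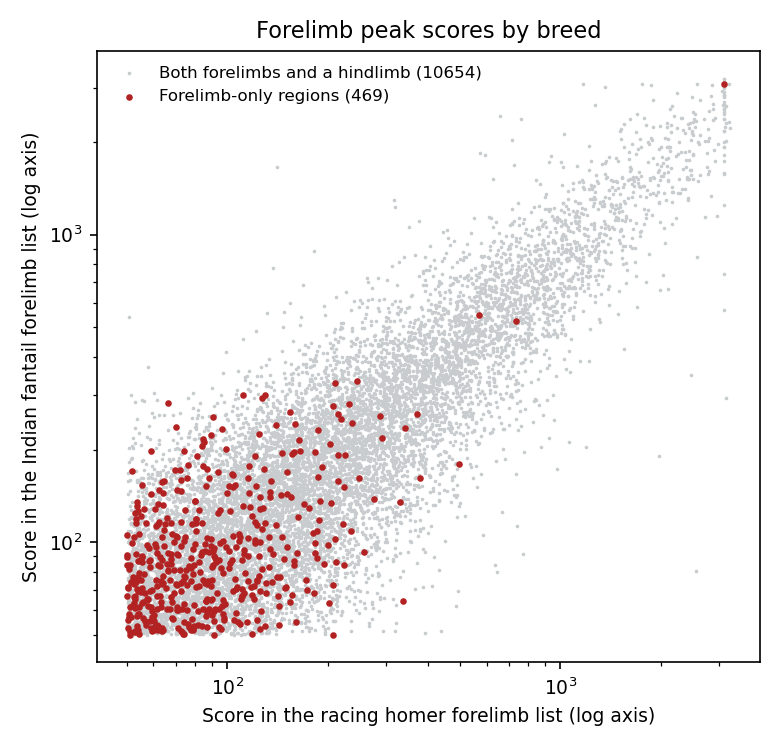
Scores of regions with peaks in both forelimb lists, racing homer on the x axis and Indian fantail on the y axis, both log axes. Each point is 1 region at its highest score in each list; the 469 forelimb-only regions (red) crowd toward the minimum of 50, apart from the region at 3100 on both axes and 2 regions above 500 on both.

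The weaker the forelimb peaks, the more often a hindlimb peak was missing. Among regions with both forelimb peaks, 469 of 11123 (4.22%; 3.86–4.61%) were forelimb-only. The share was 7.90% with lists of equal size and 0.979% with forelimb peaks at or above the median score of their list. With regions ordered by the mean of their forelimb percentiles, the share was 18.1% (36 of 199) below the 10th percentile, 10.6% (103 of 973) from the 20th to the 30th, 3.61% (49 of 1359) from the 50th to the 60th and 1.05% (15 of 1422) from the 70th to the 80th. It was 0.0735% (1 of 1361) from the 80th to the 90th and 0.208% (3 of 1444) above the 90th. The 3 members above the 90th percentile were the region at *Tbx5* and 2 regions described next. The part of the score threshold of 50 in the calls of low-scoring members was not tested.

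**Figure D3:**
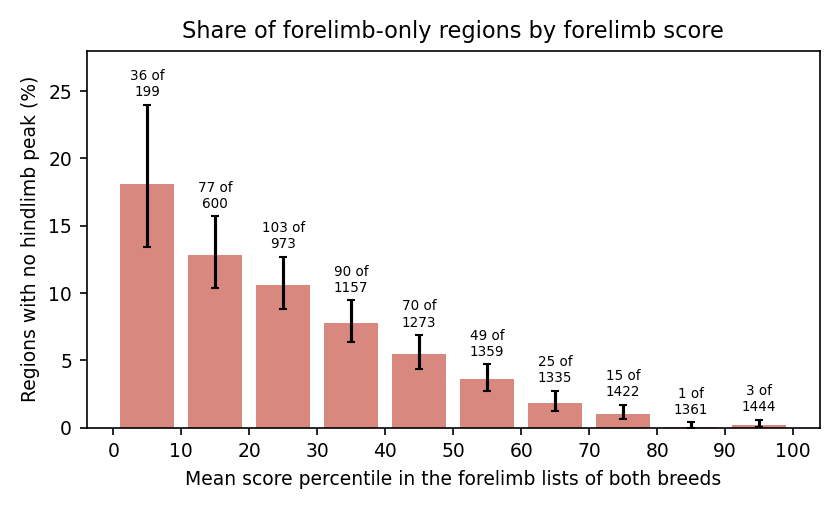
Share of regions without a hindlimb peak (y axis, %) among regions with peaks in both forelimb lists, by the mean of their score percentiles (x axis, bins of 10). Error bars are 95% Wilson intervals and the counts stand above the bars; the share falls from 18.1% in the lowest bin to below 1% in the 2 highest.

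After the region at *Tbx5*, the highest mean percentile belonged to a region of scaffold 7 from 10353681 to 10357390. It scored 737 in the racing homer and 524 for the Indian fantail, at the 93.4th and 90.4th percentiles, and had a hindlimb peak 2440 bp away. The third, on scaffold 565 from 2071470 to 2074963, scored 569.9 and 548. Its nearest called hindlimb peak was 62272 bp away. The next, on scaffold 232 from 3635694 to 3639855, scored 369.7 and 261, and a hindlimb peak lay 1205 bp from it.

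The other 6 of the 10 highest members had mean percentiles from 76.2 to 78.8. Those on scaffold 893 (405886–409070; 244 in the racing homer and 335 for the Indian fantail) and scaffold 100 (4375097–4377433; 232 and 282) were at least 9146 bp from any hindlimb peak. Those on scaffold 698 (925411–928280; 342 and 235), scaffold 155 (1610282–1614607; 496 and 179.7) and scaffold 693 (2075133–2079897; 210.4 and 329) were within 736 bp of one. The sixth, on scaffold 132 from 191282 to 194373, scored 287 and 256 and was 4681 bp from one. Of these 6 regions, 3 scored at a higher percentile in the racing homer and 3 for the Indian fantail.

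Members were narrower than regions in all 4 lists and than all regions with both forelimb peaks. The median width of the widest peak of a member was 1422 bp in the racing homer (1366–1502 bp) and 1679 bp for the Indian fantail (1626–1731 bp). It was 1813 and 2002 bp for regions in all 4 lists, and 1741 and 1933 bp for all regions with both forelimb peaks. Over single peaks of the forelimb lists, an unlike measure, the medians were 1486 and 1703 bp. Narrow peaks were not particular to members. Regions with both forelimb peaks and only an Indian fantail hindlimb peak had median forelimb widths of 1449 and 1627 bp. Those with only a racing homer hindlimb peak had 1578 and 1669 bp. Hindlimb-only regions of both breeds had 1260 and 1441 bp in the hindlimb lists. Together the members covered 756 kb of the 31508 kb of the racing homer forelimb list and 862 kb of the 33084 kb of the Indian fantail forelimb list. The Indian fantail peak was the wider in 300 of 469 members (64.0%), close to 62.6% of all regions with both forelimb peaks. A single peak in each breed made up 446 members (95.1%).

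The widest member was on scaffold 693 from 2064624 to 2074528, 9905 bp long. The racing homer had a single peak of 9779 bp here with a score of 66.5, and the Indian fantail had 3 peaks of 3739, 2225 and 3005 bp with scores of 199.7, 145 and 284. The next after the 10 strongest and the member at 739304 of scaffold 70 was on scaffold 574 from 934118 to 940026 (5909 bp). The racing homer ranked higher there, at the 84.3rd percentile (score 378) against the 62.5th for the Indian fantail (162). Members of scaffold 303 from 739429 to 744760 (5332 bp; scores 219.8 and 251) and of scaffold 320 from 658616 to 663415 (4800 bp; 129.8 and 300) followed. Width and score went together over the 469 members, with a Spearman correlation across regions of 0.64 in the racing homer and 0.63 for the Indian fantail.

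The breeds agreed less closely at the members than at shared regions. The score percentiles of the breeds had a Pearson correlation across members of 0.42 (Spearman 0.37, n = 469 regions), against 0.74 (0.80) across the 9718 regions in all 4 lists, and the log10 widths 0.62 (0.54) against 0.90 (0.89). The members hold mainly low scores, and regions of the same lists share their libraries and depth, so these are descriptions. The percentile differed by a median of 16.9 points between breeds, in either direction, and 265 members (56.5%) were within 20 points. The Indian fantail percentile was the higher in 246 members (52.5%; 47.9–56.9%).

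In 11 members the percentiles differed by more than 50 points. The racing homer stood highest above the Indian fantail at scaffold 642 from 975395 to 978010, with scores of 207 and 50.0, and next at scaffold 320 from 546537 to 549558, with 337 and 64.4. Scaffolds 120 (1474337–1476107; 160.3 and 55.1), 767 (314620–316392; 201 and 63.6) and 547 (1045175–1047149; 143 and 53.8) followed. The Indian fantail stood highest above the racing homer at scaffold 229 from 1164641 to 1166116, with a racing homer score of 51.7 and an Indian fantail score of 170.4, and next at the widest member of scaffold 693. Scaffolds 36 (7281180–7284225; 58.8 and 198), 815 (122740–125055; 69.9 and 237) and 51 (2393497–2395559; 55.6 and 154) came after it. The lower of the paired scores was under 70 in all 10 of these regions.

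The peaks of the breeds overlapped over most of a member. Their shared stretch was a median of 71.8% of the merged region, at least 50% in 391 members (83.4%) and less than 10% in 4. Where each breed had a single peak, starts differed by a median of 189.5 bp and ends by 200.5 bp (n = 446 regions), against 121 and 122 bp in regions of all 4 lists (n = 8128). Both ends lay within 100 bp of each other in 42 members (9.42%; 7.04–12.5%) and in 23.8% of the regions of all 4 lists.

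Seen from each breed, a minority of forelimb-only regions were shared, but a larger share than over all merged regions. The racing homer had 2996 regions with a forelimb peak and no hindlimb peak of its own (11.3% of all merged regions) and the Indian fantail had 1843 (6.97%). The 469 members were 15.7% of the first (14.4–17.0%), where the Indian fantail set is 6.97% of all merged regions. They were 25.4% of the second (23.5–27.5%), where the racing homer set is 11.3%. For the shares that follow, the share over all forelimb regions of the breed was not computed. Of the racing homer set, 666 (22.2%) had peaks in both Indian fantail limbs, 696 (23.2%) had an Indian fantail hindlimb peak alone and 1165 (38.9%) had no Indian fantail peak. Of the Indian fantail set, 270 (14.7%) had peaks in both racing homer limbs, 202 (11%) had a racing homer hindlimb peak alone and 902 (48.9%) had no racing homer peak. The Indian fantail hindlimb list was the longest. With lists of equal size the members' share of the racing homer set moved from 15.7% to 25.3%. Their share of the Indian fantail set was 25.6%, within the interval of the main value. The other shares were not computed again with lists of equal size, and the cause of the change was not tested.

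Regions just outside the rule were those with both forelimb peaks and a peak in a single hindlimb list. There were 666 with an Indian fantail hindlimb peak and 270 with a racing homer hindlimb peak, against 469 members. The hindlimb peak that kept them out had a median score of 96.8 (91.8–101) for the Indian fantail and 79.9 (75.7–89.3) for the racing homer, and scored under 60 in 89 (13.4%) and 46 (17.0%). The smallest overlap that kept a region out was 133 bp, on scaffold 454 from 2662277 to 2666249, where the Indian fantail hindlimb peak scored 134. Just inside the rule, the members closest to a hindlimb peak were on scaffold 392 from 697108 to 699811, 6 bp from an Indian fantail peak, and on scaffold 114 from 2366229 to 2366907, 7 bp from one. Members of scaffold 110 (720442–722522), scaffold 922 (228013–228459) and scaffold 1 (1779095–1781225) were 17, 25 and 34 bp from one.

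Called hindlimb peaks were often close by, as were forelimb peaks to hindlimb-only regions. A hindlimb peak of either breed lay within 1 kb of 68 members (14.5%; 11.6–18.0%) and within 5 kb of 207 members (44.1%; 39.7–48.7%), and the median gap was 6748 bp (5214–8254 bp; n = 465 members with a hindlimb peak on their scaffold). In the mirrored direction, a forelimb peak lay within 1 kb of 15.1% of the 2464 hindlimb-only regions (13.8–16.6%). It lay within 5 kb of 37.6% (35.7–39.5%), with a median gap of 9498 bp. The same shares were not computed over all regions with both forelimb peaks. The hindlimb lists held more peaks than the forelimb lists, so these shares are not directly comparable. With lists of equal size, 35.1% of the members (32.0–38.4%) had a hindlimb peak within 5 kb. Of the 57 members with both scores at or above the list median, 23 (40.4%) had a hindlimb peak within 5 kb. The nearest merged region was in all 4 lists for 171 members (36.5%), the same share as all 4 lists have of all merged regions (36.7%). It was another member for 39 (8.32%; 6.14–11.2%), where members are 1.77% of all regions, and a region with both forelimb peaks and 1 hindlimb peak for 41 (8.74%; 6.51–11.6%), where such regions are 3.54%. It was hindlimb-only in both breeds for 21 (4.48%; 2.95–6.75%), where such regions are 9.31%. The share next to another member rested in part on members separated by short gaps. These included gaps of 16, 41 and 93 bp on scaffold 70 and 15 bp on scaffold 691. The kinds of nearest region were not counted again with peaks within 500 bp joined.

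**Figure D4:**
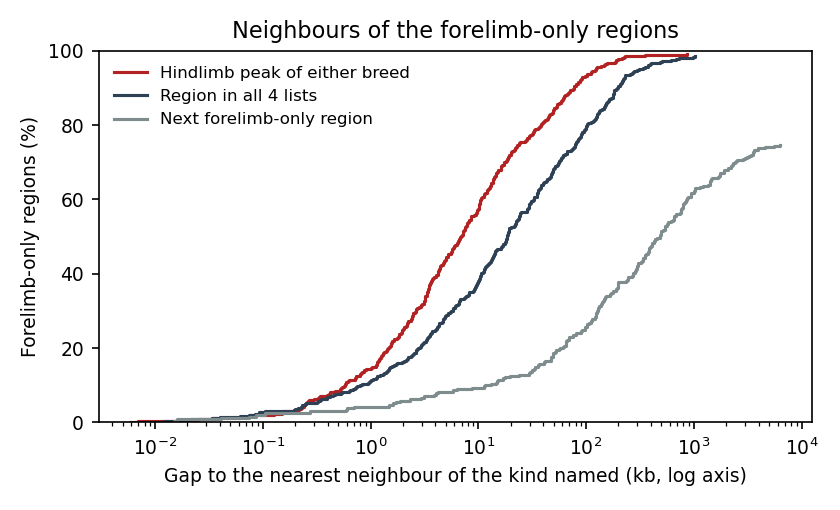
Cumulative share of the 469 forelimb-only regions (y axis, %) by the gap in kb (x axis, log) to the nearest hindlimb peak of either breed, the nearest region in all 4 lists and the next forelimb-only region. The curve for hindlimb peaks passes 44.1% at 5 kb, while the curve for the next forelimb-only region reaches 18.6% at 50 kb and stays below 100% because 119 members are alone on their scaffold.

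Members were spread thinly, with some compact groups. They lay on 213 of 837 scaffolds with a merged region, and 119 of these scaffolds had a single member. The most were on scaffold 101, with 16 among 498 merged regions (3.21%; 1.99–5.15%), and scaffold 7, with 11 among 663 (1.66%; 0.929–2.95%). Another member lay within 50 kb of 87 members (18.6%; 15.3–22.3%). For the hindlimb-only regions of both breeds, which are more numerous, the share was 37.3% (35.4–39.2%). When members within 50 kb were linked, 382 stood alone, 26 pairs formed, and 11 groups had 3 or 4 members, 35 members in all. These groups spanned 10.3 to 85.8 kb. In 5 of the 11 groups all merged regions were members, and in 5 there was also a region in all 4 lists. The number with a hindlimb-only region was 0, where such regions are 9.31% of all merged regions. Groups of members only could hold none, and the others held few other regions, so this 0 is not read as a result.

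**Figure D5:**
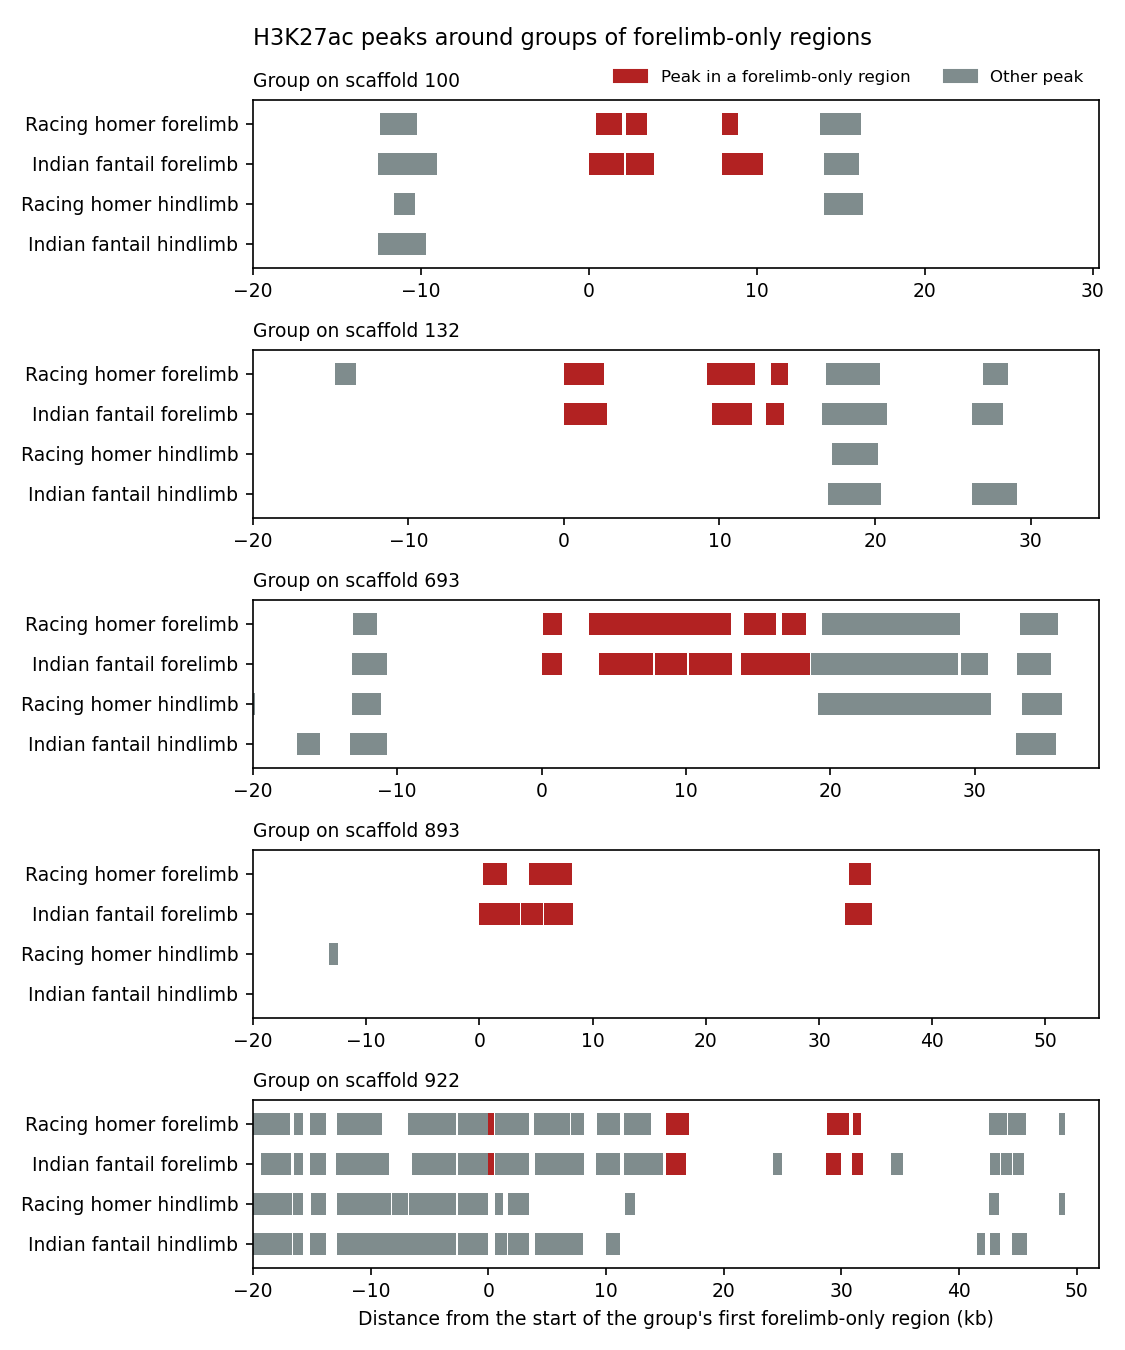
Peaks of the 4 lists around groups of forelimb-only regions on scaffolds 100, 132, 693, 893 and 922, drawn to scale as distance in kb from the start of the first member of each group. Bars are peaks, red where they belong to a forelimb-only region. The groups on scaffolds 100, 132, 693 and 893 were drawn because they hold no other merged region, so this is not a finding. Groups of 3 members that also hold other merged regions, such as that on scaffold 1, are not drawn here. On scaffold 922, 3 of 4 members lie beyond the end of a block of peaks of all 4 lists.

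The 2 groups of 4 members were the stretch of scaffold 70 from 671298 to 686575, described above, and a stretch of scaffold 922 from 228013 to 259859. On scaffold 922, a dense block of peaks of all 4 lists was followed along the scaffold by a stretch with mainly forelimb peaks. The region from 228572 to 231431 was in all 4 lists, with forelimb scores of 879 and 931 and hindlimb scores of 259.8 in the racing homer and 381 for the Indian fantail. The regions from 231932 to 236120 and from 237176 to 239194 had both forelimb peaks and an Indian fantail hindlimb peak, which scored 280.1 and 68.1. The region from 239525 to 242826 had a racing homer hindlimb peak with a score of 57.0. Beyond it came the members from 243095 to 245077 (134 and 95.3), from 256727 to 258662 (180.4 and 107) and from 258936 to 259859 (59.3 and 57.1). Peaks of all 4 lists returned from 270536, with hindlimb scores of 168 in the racing homer and 269 for the Indian fantail. The fourth member, from 228013 to 228459, was a peak of 445 bp inside the block and lay 25 bp from a hindlimb peak.

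Another 9 groups held 3 members each, and those described next came first in the order of scaffold names. On scaffold 132, the members from 182088 to 184869 (154 and 264), from 191282 to 194373 (287 and 256) and from 195075 to 196467 (59.6 and 59.8) stood before a region in all 4 lists that began at 198688. On scaffold 100, the members from 96205 to 98319 (85.5 and 93.8), from 98394 to 100069 (108 and 101) and from 104098 to 106546 (53.6 and 76.0) filled 10.3 kb. On scaffold 1, the members from 1700376 to 1702762 (95.4 and 82.1), from 1746950 to 1748585 (67.2 and 60.6) and from 1779095 to 1781225 (126 and 128) alternated with 7 regions that had hindlimb peaks.

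In a further 2 groups, named after their values were seen, members stood next to the strongest or widest ones. The group on scaffold 693 joined the widest member with the members from 2061305 to 2062738 (183 and 196) and from 2075133 to 2079897 (210.4 and 329), 18.6 kb in all, directly before forelimb peaks with scores of 665 and 957 over which the racing homer hindlimb list had a peak and the Indian fantail hindlimb list had none. The group on scaffold 893 comprised members from 207681 to 211242 (122 and 153), from 211348 to 215972 (214 and 261) and from 240004 to 242385 (117 and 130), and the next merged region along the scaffold, from 308454 to 312856 (223 and 84.4), was again a member. In all, 8 of the 73 merged regions of scaffold 893 were members (11%; 5.66–20.2%). Runs of members with no other merged region between them numbered 26, of which 20 were pairs, 4 had 3 members and 2, on scaffolds 70 and 893, had 4.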

How the data were processed

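The study sequenced single-end reads of H3K27ac ChIP and input libraries from limb buds, and the submitters' processing notes name CASAVA, Bowtie2 2.2.3, SAMtools, MACS 1.4.2 and MACS2 2.0.10.20130915 without their roles. The genome build, the threshold and the way replicates were combined are not given in the sources used here. The deposited lists give each peak's start, end and score; the score's scale was not stated, so it was ranked within its list. Another 2 deposited tables hold the authors' log10 likelihood ratios between the hindlimbs of the breeds and were not used here, so the planned count of members over their regions was left out. The depth per sample is unknown.

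Merged regions, flags, gaps and percentiles were computed with Python 3.11.15, numpy 2.4.6 and scipy 1.17.1, and figures drawn with matplotlib 3.10.9. All 10 of 10 checks passed. Flags and the number of members were recovered on 3000 simulated regions, and joining, gaps and the interval of the median were checked on separate made-up inputs. Where a member had several peaks in a list, its score is the highest and its width that of the widest. Shares have 95% Wilson intervals, and medians distribution-free intervals. Libraries were grouped by breed, limb and antibody, and limbs and breeds were compared without a test, since each has 1 list.

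Members were named by rule: the 10 with the highest mean percentile, the 5 widest others, those in the 3 windows at *Tbx5*, *Tbx3* and *Pitx1*, the 5 largest groups, and those with the largest differences between breeds or closest to a hindlimb peak. Ties among the 9 groups of 3 members were broken by the order of scaffold names. The members and the naming rule were chosen with earlier results of these data known. No genome of the lists' assembly was used, so no sequence, motif or nearest gene is given. Alternatives were other joining rules, stricter scores, lists of equal size, a margin of 1 kb to hindlimb peaks and other link distances.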

Additional observations from a re-analysis of the deposited data

How the results depend on the processing

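No paired analysis was possible because every list was made from both replicates together, and leaving out single replicates could not be done either. At unknown depth, a missing hindlimb peak does not show that acetylation was absent. Of 68 values under an alternative, 33 stayed within the interval of the main value, or within 1.5 times a count, and 35 moved beyond it. In the values below, the order is the number of members, the share of regions with both forelimb peaks, the shares of the racing homer and Indian fantail forelimb-only sets, the median widths and percentiles in the racing homer and Indian fantail, the share with another member within 50 kb, the share with a hindlimb peak within 5 kb and the number in the *Tbx5* window, with unmoved values left out.

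Joining intervals within 500 bp moved the share with another member to 13.9%, the share near a hindlimb peak to 36.6% and the *Tbx5* count to 1. Under this rule the region from 677169 to 686575 was no longer forelimb-only, since it lies 376 bp from the next region, which has Indian fantail hindlimb peaks, and 6 of the 10 strongest members were kept. Under the other 5 rules for members the region was kept. With peaks scoring at least 100 there were 293 members, which overlapped 90 of the original 469, and the values were 17.6% and 32.6% of the breed sets, 2043 and 2226 bp, the 59.5th and 60.3rd percentiles, 28.3% near a hindlimb peak and 2 in the *Tbx5* window. Lists of equal size (15357 peaks) gave 851 members and overlapped 413 of the 469, with 7.90% of regions with both forelimb peaks, 25.3% of the racing homer set, 1503 bp and the 36.6th percentile in the racing homer, 26.8% with another member and 35.1% near a hindlimb peak. With forelimb peaks at or above the list median there were 58 members, 0.979% of regions with both forelimb peaks, 14.1% and 22.9% of the breed sets, 2246 and 2560 bp, the 66.1st and 68.4th percentiles, 10.3% with another member and 1 in the *Tbx5* window; higher percentiles and widths follow from that rule's own construction. Leaving out members with a hindlimb peak within 1 kb kept 401, 3.61% of regions with both forelimb peaks, 13.4% and 21.8% of the breed sets and 34.7% near a hindlimb peak. Linking within 20 or 100 kb gave 12.6% and 25.8% with another member. An overlap of at least 50% of the shorter interval moved no value. Other rules also act on the values by construction. The cutoff of 100 leaves out low-scoring peaks, and the 1 kb margin leaves out members near a hindlimb peak. The link distance itself sets how near another member must lie. Apart from these constructions, the cause of a change was not tested.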
